A study of Homo sapiens with 5 samples.

Results

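Mouse oligodendrocyte progenitor cells (OPCs) of the host brain were recovered together with the human cells of brain organoid grafts, and 79 of them were found among 4961 host cells. Host cells were barcodes with over 500 mouse UMIs (unique molecular identifiers, each standing for 1 captured RNA molecule) and under 20% human UMIs in the joint human and mouse count matrices, which held 40966 barcodes in all. The members were chosen by their own RNA. A cell was kept when at least 3 of the 6 genes Pdgfra, Lhfpl3, Tnr, C1ql1, Cspg4 and Pcdh15 were detected and fewer than 4 of the 7 myelin genes Mal, Cldn11, Mobp, Mog, Mag, Opalin and Ermn. These 13 genes are therefore described here and support nothing.

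The grafts were organoids of the human embryonic stem cell line H9, labelled as wild type and, per the study's methods, carrying channelrhodopsin and a yellow fluorescent protein at a safe-harbour locus. They were placed in the hippocampus (HIP) or prefrontal cortex (PFC) of young adult immunodeficient SCID mice, a strain that the study also names SCID-Beige, and collected 2 or 4 months post-transplantation (MPT). This gave 4 libraries, which are named by site and stage, HIP_2MPT and HIP_4MPT, PFC_2MPT and PFC_4MPT, and each condition had 1 library. All host cells thus came from SCID mice that carried a graft. No library of an ungrafted mouse brain was analysed here, and the organoid library from before grafting holds no host cells. Grafts were dissected under fluorescence, so the host cells are those that were carried along with the fluorescent tissue and survived digestion. The labels do not say how many animals each library holds, and p-values measure only the spread between these libraries.

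OPCs are the dividing precursors of the oligodendrocyte lineage and persist in the adult brain, where they keep contact with neurons through synapses. They carry the PDGF receptor alpha and the NG2 proteoglycan (Cspg4), and they depend on the transcription factors Olig2 and Sox10. On differentiation they pass through a committed stage, marked by Gpr17, Bcas1, Enpp6 and Bmp4, lose the PDGF receptor and then begin to make myelin proteins. In adult brain tissue, OPCs divide rarely and are far outnumbered by mature oligodendrocytes.

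The number of host OPCs differed widely between libraries. There were 16 OPCs among 916 host cells in HIP_2MPT and 3 among 2071 in HIP_4MPT, and 11 among 772 in PFC_2MPT and 49 among 1202 in PFC_4MPT. The share of host cells was 1.75% in HIP_2MPT, with an exact Clopper-Pearson 95% interval of 1.00 to 2.82. It was 1.42% in PFC_2MPT, with an interval of 0.713 to 2.54. In HIP_4MPT it was 0.145%, with an interval of 0.0299 to 0.423, and in PFC_4MPT it was 4.08%, with an interval of 3.03 to 5.35. The PFC_4MPT library thus supplied 62.0% of all members, and the 4MPT libraries had both the highest and the lowest share. The intervals cover counting error only. Membership moved with depth. With each host cell thinned to 1000 UMIs and shallower cells left out, HIP_2MPT kept 11 OPCs (1.69% of 652 cells), while PFC_2MPT kept 3 (0.479% of 626). HIP_4MPT kept its 3 OPCs (0.179% of 1680), and PFC_4MPT kept 36 (3.16% of 1140).

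The mean share was 2.11% ± 2.78 (SD, n = 2 libraries) at 4MPT and 1.59% ± 0.23 (SD, n = 2) at 2MPT. It was 2.75% ± 1.88 (SD, n = 2) in PFC and 0.946% ± 1.13 (SD, n = 2) in HIP. With all host cells as the denominator, both differences were within the spread of the libraries, and the libraries of each pair overlapped. No test was made, because an exact permutation test of 2 against 2 libraries cannot pass a threshold of 0.05. The microglial class held host cells with 3 or more of 7 microglial genes, OPCs apart. Outside this class, the OPCs made up 4.08% of host cells in HIP_2MPT and 0.297% in HIP_4MPT, and 4.23% in PFC_2MPT and 7.05% in PFC_4MPT. All OPCs stayed in, among them 3 of 16 in HIP_2MPT and 3 of 49 in PFC_4MPT with 3 or more genes of a list of 10 microglial genes. On this scale both PFC libraries lay above both HIP libraries, by a mean of 3.45 percentage points beside SDs of 1.99 in PFC and 2.68 in HIP (n = 2 each), though PFC_2MPT and HIP_2MPT were close.

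**Figure D1:**
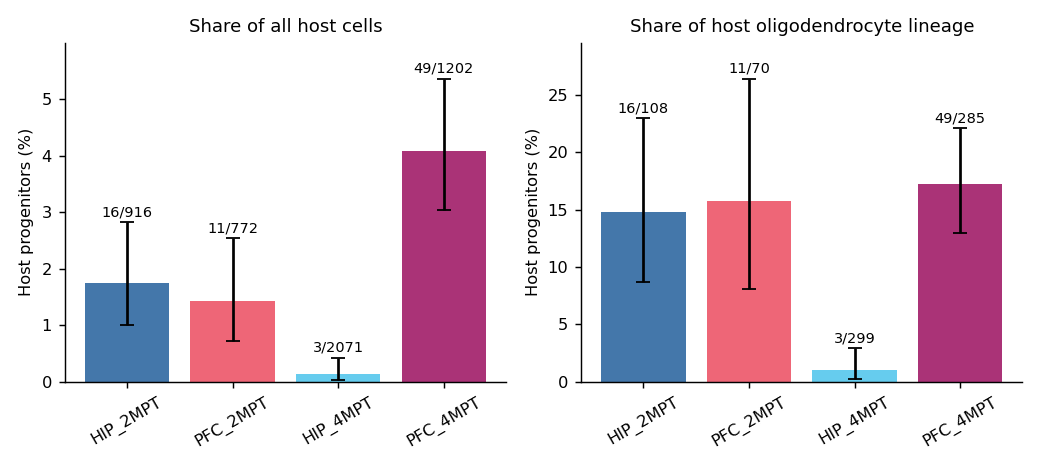
Share of host OPCs in each library (bars, percent) among all host cells (left) and among OPCs plus mature oligodendrocytes (right); error bars are exact 95% binomial intervals and the labels give OPCs over the denominator. HIP_4MPT is lowest on both scales, and on the right the other libraries lie between 14.8 and 17.2%.

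Set against mature oligodendrocytes, 3 of the libraries were close together. OPCs were 14.8% of lineage cells in HIP_2MPT (16 of 108), 15.7% in PFC_2MPT (11 of 70) and 17.2% in PFC_4MPT (49 of 285), but 1.00% in HIP_4MPT (3 of 299). The exact 95% intervals were 8.71 to 22.9 in HIP_2MPT, 8.11 to 26.4 in PFC_2MPT and 0.207 to 2.90 in HIP_4MPT, and that of PFC_4MPT reached up to 22.1. HIP_4MPT therefore held many mature oligodendrocytes, 296 of them, beside its 3 OPCs, whereas PFC_4MPT held 236 beside 49. The HIP_4MPT library also stood apart in Ttr, the transthyretin gene of choroid plexus. Ttr made up 0.482% of the UMIs of its OPCs, 0.926% in its mature oligodendrocytes and 0.537% in its astrocytes, but 13.9% in its cells with 3 or more microglial genes, and it was at 150792 CPM (counts scaled to 1e+06 per profile) among the mouse UMIs of its human barcodes. In the same class Ttr was at 0.000735% in HIP_2MPT, 0 in PFC_2MPT and 0.000142% in PFC_4MPT. The microglial class, left out of the denominator above, was thus not alike between the libraries. The part of these Ttr levels in the shares was not tested.

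The sequencing depth of OPCs differed less than their number. The median was 1463 UMIs per OPC in HIP_2MPT and 4419 in HIP_4MPT, and 2918 in PFC_2MPT and 2940 in PFC_4MPT, where all host cells had medians of 1263, 2902, 2429.5 and 2450 in the same order. The summed OPC profiles held 23432, 12236, 38511 and 150720 UMIs, again in this order, 224899 in all. A count of 3 UMIs, taken as the floor of detection, corresponds to 128 CPM in HIP_2MPT and 245 in HIP_4MPT, and 77.9 in PFC_2MPT and 19.9 in PFC_4MPT. Below these levels a gene was not detectable, and absence was not shown.

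Few host cells lay 1 gene below the threshold of the rule, though 16 members lay exactly at it. Of the 79 members, 16 had 3 of the 6 progenitor genes, 19 had 4, 28 had 5 and 16 had all 6. Just outside the threshold, only 2 host cells had exactly 2 of these genes and 137 had 1. Members with 3 genes had a median of 1754.5 UMIs and members with 6 a median of 3488.5, so the number of genes moved with depth. A single host cell had 3 or more progenitor genes together with 4 or more myelin genes, and it was left out. In 69 members no gene of the myelin part of the rule was detected.

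Among the genes of the rule, Lhfpl3, which encodes a tetraspan membrane protein, was detected in 78 of 79 OPCs, with 79 UMIs in HIP_2MPT and 28 in HIP_4MPT, and 74 in PFC_2MPT and 258 in PFC_4MPT. Pcdh15, a protocadherin gene, was found in 71 cells. Tnr, which encodes the matrix glycoprotein tenascin-R, was found in 69. Pdgfra, the receptor for the OPC mitogen PDGF-A, was detected in 56 cells and C1ql1, a secreted C1q-like protein gene, in 53. Cspg4, encoding NG2, was the sparsest, with 42 UMIs in 33 cells. Of the myelin genes of the rule, Mal, Mobp, Opalin and Ermn had no UMI in any OPC, and Cldn11, the claudin of myelin tight junctions, had 15 UMIs in 8 cells.

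Genes that the rule did not use carried the identity of the oligodendrocyte lineage, as the label has it. Olig1, a transcription factor of the oligodendrocyte lineage, was detected in 76 of 79 OPCs. Its level was 1536 CPM in HIP_2MPT and 3923 in HIP_4MPT, and 2025 in PFC_2MPT and 1818 in PFC_4MPT, against 672 in mature oligodendrocytes and 76.8 in astrocytes of the host. Olig2, which specifies the lineage, was detected in 56 OPCs at a mean of 743 CPM ± 417 (SD, n = 4 libraries), and Sox10, which drives lineage gene expression, in 49 OPCs at 429 CPM ± 198 (SD, n = 4). Sox6, which holds OPCs in the undifferentiated state, had 99 UMIs in 50 OPCs, 1.00 CPM in mature oligodendrocytes and 207 CPM in astrocytes. Its relative Sox5 had 67 UMIs. Zeb2, a transcription factor of oligodendrocyte differentiation, had 75. Thus the pan-lineage factors were shared with mature cells, whereas Sox6 was shared with astrocytes.

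Surface and matrix genes of OPCs varied to different degrees between the libraries. Ptprz1, a receptor phosphatase that carries chondroitin sulfate, was at 1195 CPM in HIP_2MPT and 1308 in HIP_4MPT, and 1168 in PFC_2MPT and 1327 in PFC_4MPT. Cspg5, encoding neuroglycan C, had a mean of 1656 CPM ± 254 (SD, n = 4). Both were also high in host astrocytes, at 1112 and 1253 CPM, and low in mature oligodendrocytes, at 5.01 and 10.0 CPM. The same held for the glypican gene Gpc5, with 262 UMIs in 62 OPCs, and for brevican (Bcan), with 155 UMIs in 59 OPCs. Bcan ranged from 327 CPM in HIP_4MPT to 743 in PFC_4MPT, and versican (Vcan) from 213 in HIP_2MPT to 675 in PFC_2MPT. Matrilin 4 (Matn4) had 130 UMIs and was low in astrocytes, at 45.0 CPM. Of the 20 matrix genes listed, 19 had at least 1 UMI in OPCs.

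By contrast, Opcml, an adhesion molecule gene, Dscam, a homophilic adhesion receptor gene, and Nxph1, which encodes a neurexin ligand, marked OPCs against both relatives. Opcml was detected in 77 OPCs at 2140 CPM ± 869 (SD, n = 4), against 51.6 CPM in mature oligodendrocytes and no UMI in astrocytes. Dscam was detected in 68 OPCs at 1128 CPM ± 296 (SD, n = 4), against 10.0 CPM in mature cells. Nxph1 had 166 UMIs in OPCs, no UMI in the 683 mature oligodendrocytes and 5.30 CPM in the 190 astrocytes.

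**Figure D2:**
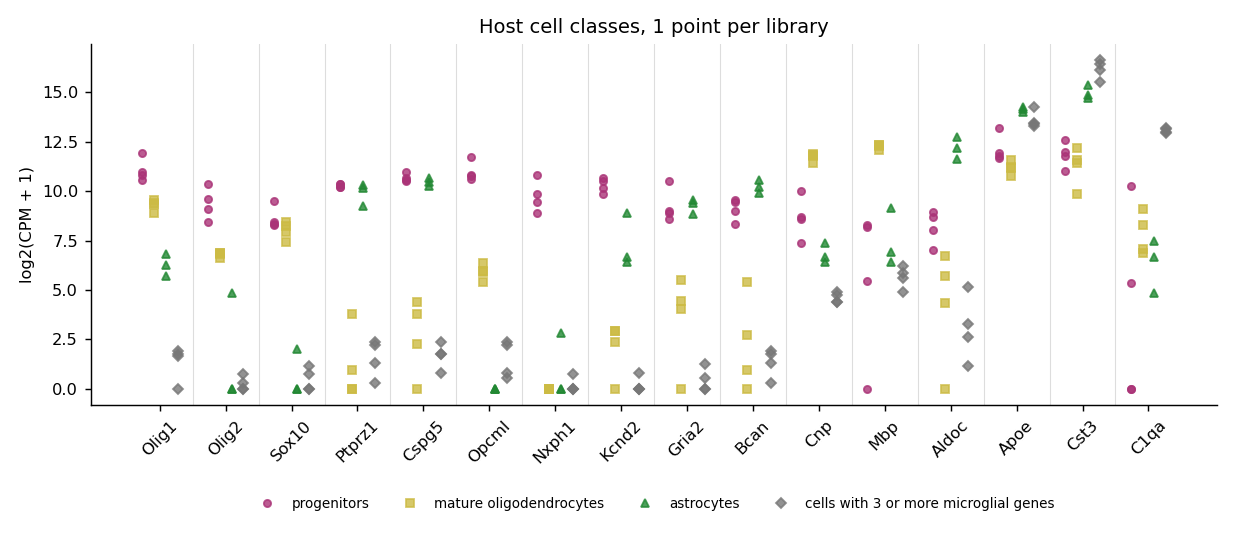
Level of 16 genes in OPCs, mature oligodendrocytes, astrocytes and cells with 3 or more microglial genes of the host, as log2(CPM + 1) of UMIs summed over the cells of a class, with 1 point per library; HIP_2MPT is left out for astrocytes, where it held 1 cell. Opcml and Nxph1 are high in OPCs only among these classes, Ptprz1, Cspg5 and Bcan in OPCs and astrocytes, and Cnp and Mbp in mature oligodendrocytes.

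Receptors and channels of neuronal input were present. The AMPA receptor subunit gene Gria2 had 123 UMIs in 49 OPCs and the subunit gene Gria4 had 63 in 36. The kainate receptor gene Grik2 had 89 UMIs and the metabotropic receptor gene Grm5 had 91, detected in 46 OPCs. Grin3a, an NMDA receptor subunit gene, had 41 UMIs and Gria3 had 39. Of the 37 transmitter receptor genes listed, 26 had a UMI and 6 had 30 or more. Among ion channel genes, Kcnd2, an A-type potassium channel, was at 1451 CPM in HIP_2MPT and 1635 in HIP_4MPT, and 935 in PFC_2MPT and 1161 in PFC_4MPT. Cacng4, an AMPA receptor auxiliary subunit, had 84 UMIs in 47 OPCs and none in mature oligodendrocytes.

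Among growth factor receptors, Erbb4, a neuregulin receptor, had 202 UMIs in 67 OPCs, and Gpr37l1, an orphan receptor shared with astrocytes, had 175. Ntrk2, the BDNF receptor, had 72. Egfr, which marks activated progenitors of the subventricular zone, had 2 UMIs, both in PFC_4MPT. With 150720 UMIs in that library this is 13.3 CPM, under the floor of 19.9.

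Outside the rule, the 15 genes with the highest ratio of OPCs to other host cells in the library where that ratio was lowest were Nrg3, Dscam, Plpp4, Olfm2, Csmd1, Rprm, Sgcz, Slc35f1, Gpr17, Tafa1, Grm5, Sgcd, Emid1, Lrfn5 and Gm32509, out of 1305 with 30 or more UMIs. Nrg3 encodes a neuregulin, the ligand of Erbb4. It was at 341 CPM in HIP_2MPT and 490 in HIP_4MPT, and 338 in PFC_2MPT and 325 in PFC_4MPT, and at no more than 1.58 CPM in the other host cells of any library. Its lowest ratio, on CPM with 1 added, was 133. Csmd1, a large membrane protein gene with complement control domains, was detected in 74 OPCs. These ratios follow from cells chosen by genes that vary together with them and are given as a description.

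Genes of the committed stage were detected in part of the OPCs. In 35 of 79 cells at least 2 of the 5 genes Bmp4, Neu4, Gpr17, Enpp6 and Bcas1 were found, but 29 of these had 2 to 4 of them, with Pdgfra and Cnp close to their levels in the 44 OPCs with 0 or 1, and only 6 had all 5. These cells were 1 of 16 in HIP_2MPT, 8 of 11 in PFC_2MPT, all 3 in HIP_4MPT and 23 of 49 in PFC_4MPT. As shares this was 6.25%, 72.7%, 100% and 46.9%, with exact 95% intervals of 0.158 to 30.2, 39.0 to 94.0, 29.2 to 100 and 32.5 to 61.7. Detection followed depth. After each cell was thinned to 1000 UMIs, with 4 shallower cells left out, the counts were 0 of 15, 4 of 10, 0 of 3 and 9 of 47. Among mature oligodendrocytes, not thinned, the counts were 6 of 92, 15 of 59, 43 of 296 and 49 of 236, so that the share in HIP_2MPT, 6.52%, was close to that of OPCs. None of the cells of the microglial class, which leaves OPCs out, had 2 or more of these genes in any library, at medians of 1362 to 3136 UMIs.

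At the end of this range were 6 cells with all 5 committed genes, 3 in PFC_2MPT and 3 in PFC_4MPT. They were among the deepest OPCs, with 3741 to 8183 UMIs. In these cells Pdgfra had no UMI among 37174. Against the floor of 3 counts, over the group, this was at least 9.94-fold lower than the 803 CPM of the 44 OPCs with 0 or 1 committed genes. The proteoglycan genes Cspg5 and Ptprz1 were lower as well, Cspg5 at 188 CPM against 2262 and Ptprz1 at 269 against 1584. Kcnd2 was at 53.8 CPM against 1438 and Pcdh15 at 108 against 1261. Olig1 was at 1533 CPM, beside 1636 in the 44 cells. Tnr was at 1318 CPM beside 1042, with 6 of 6 cells positive. As Tnr belongs to the rule and these cells lacked Pdgfra, its presence in them was partly set by the rule.

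Genes of early myelination ran the other way in the 6 cells. Cnp, an early myelin enzyme gene, was at 2152 CPM against 177 in the 44 OPCs with 0 or 1 committed genes. Sirt2, a deacetylase of oligodendrocytes, was at 4116 against 448 and Fyn, a kinase of process outgrowth, at 1399 against 146. Nkx2-2, a differentiation factor, was at 484 against 73.0 CPM. Myrf, the myelin gene regulator, had 7 UMIs in OPCs, all within these 6 cells. Mbp was detected in 4 of the 6. Of the myelin genes of the rule, Cldn11 was detected in 5 of the 6 with 12 UMIs, Mog and Mag in 2 each, and Mal, Mobp, Opalin and Ermn had no UMI. In the 29 OPCs with 2 to 4 committed genes Pdgfra was at 730 CPM and Cnp at 174, and C1ql1 was at 992 against 521 in the 44 cells. Neu4 was at 643 CPM against 198, but it is itself a committed gene that set the groups, so this rise follows from the grouping. The cells were grouped by detected genes of the same lineage, so these values carry no test.

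**Figure D3:**
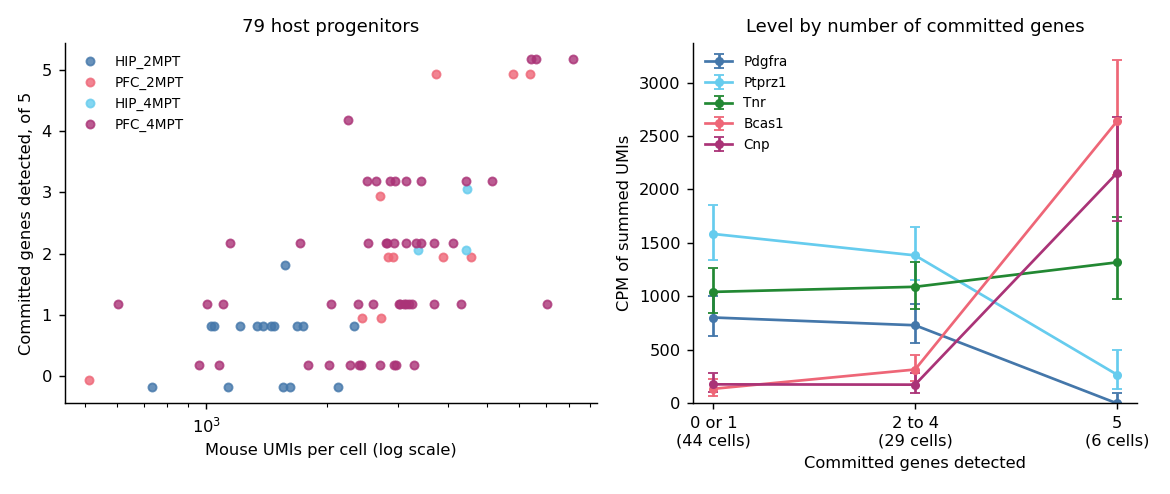
Left, mouse UMIs per cell (log scale) against the number of 5 committed genes detected in each of the 79 OPCs, offset by library; right, CPM of summed UMIs by number of committed genes, with exact 95% Poisson intervals for counting error. The 6 cells with all 5 genes come from the PFC libraries, with Cnp at 2152 CPM and Pdgfra at 0.

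Cycling OPCs were rare. A single OPC, in PFC_4MPT, had 2 or more of 10 cell cycle genes. It had 8 of them, among them Birc5 with 14 UMIs and Ube2c with 15, and Top2a with 4. It had 5146 UMIs, 5 of the 6 progenitor genes and 3 committed genes. The share was 2.04% of OPCs in PFC_4MPT, with an exact 95% interval of 0.0517 to 10.9. None was found among the 16, 11 and 3 OPCs of the other libraries, where the upper bounds were 20.6, 28.5 and 70.8%. Cycling could therefore not be compared between the libraries. Mki67 had no UMI in any OPC.

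**Figure D4:**
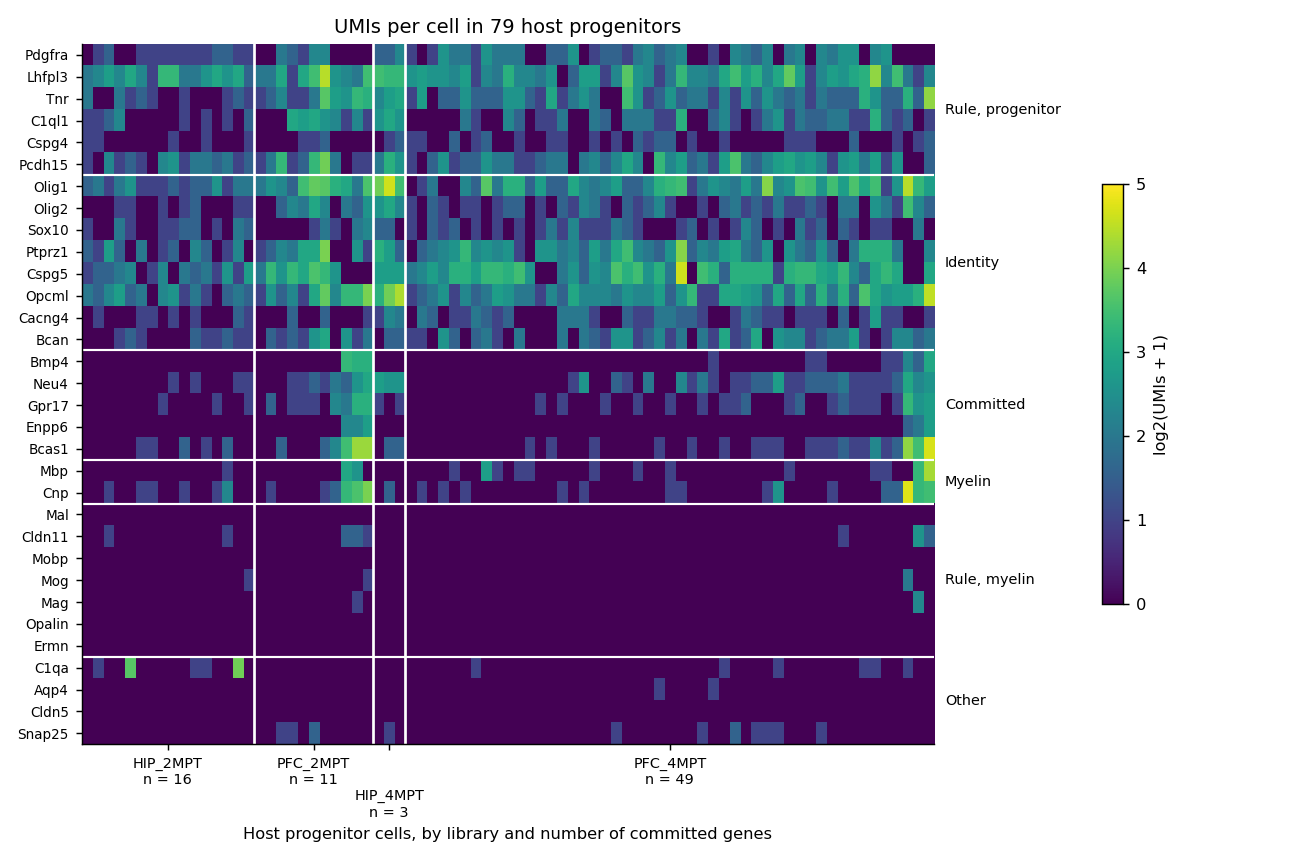
UMIs per cell, as log2(UMIs + 1), of 32 genes (rows, grouped by role) in the 79 OPCs (columns), ordered by library and by number of committed genes. The cells at the right end of PFC_2MPT and of PFC_4MPT combine all 5 committed genes with Cnp, while Mal, Mobp, Opalin and Ermn are empty in all cells.

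Markers of other cell types varied by type and library. Of 10 microglial genes, 8 were detected in the OPCs of HIP_2MPT, summing to 4268 CPM with C1qa the most abundant at 29 UMIs, while Cx3cr1 and P2ry12 were at 0. The sum was 104 CPM in PFC_2MPT, 163 in HIP_4MPT and 226 in PFC_4MPT. In HIP_2MPT 3 of 16 OPCs had 3 or more microglial genes, and in PFC_4MPT 3 of 49 did. Of 10 astrocyte genes, the sum was 640, 597, 817 and 1062 CPM in HIP_2MPT, PFC_2MPT, HIP_4MPT and PFC_4MPT, against 17495 in host astrocytes. In PFC_4MPT 14 of 49 OPCs had 3 or more astrocyte genes and 32 had 2 or more, and in each other library 1 OPC had 3 or more. Aldoc led with 91 UMIs, Gja1, Agt and Fgfr3 were at 0 in all libraries, and Aqp4 had 2 UMIs. Endothelial genes had 7 UMIs in all. Of 10 neuronal genes, 7 were detected, at 126 to 130 CPM in 3 libraries and 81.7 in HIP_4MPT. Mural and fibroblast genes had 33 UMIs, all in PFC_4MPT, and 1 of its OPCs had 3 or more of them. Lymphocyte genes had 3 UMIs and granulocyte and red cell genes 6, all in HIP_2MPT. Ttr was detected in all 3 OPCs of HIP_4MPT, with 32, 14 and 13 UMIs, and the other 7 choroid plexus and ependymal genes were at 0.

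Immune genes were high in the OPCs of HIP_2MPT. H2-D1, a class I MHC heavy chain gene, was at 4438 CPM in HIP_2MPT and 327 in HIP_4MPT, and 441 in PFC_2MPT and 650 in PFC_4MPT. Its partner B2m was at 1664 CPM in HIP_2MPT and at 81.7 to 104 in the others. Cd74, the class II invariant chain gene, had 47 UMIs in 8 OPCs of HIP_2MPT, 37 of them in 1 cell with 8 microglial genes, and none elsewhere. The free RNA of HIP_2MPT was high in the same genes. In the mouse UMIs of human barcodes, taken here as a measure of free mouse RNA, H2-D1 was at 4038 CPM in HIP_2MPT and at 676, 747 and 311 in PFC_2MPT, HIP_4MPT and PFC_4MPT, and Cd74 was at 8656 CPM in HIP_2MPT. In the 12 OPCs of HIP_2MPT with fewer than 2 microglial genes, H2-D1 was at 4105 CPM and Cd74 at 379. Apoe, a lipid carrier of glia and microglia, was at 9432 CPM in the OPCs of HIP_2MPT and 3298 to 3841 in the others. Of its 221 UMIs in HIP_2MPT, 153 came from 1 OPC with 7 microglial genes, and the other 15 OPCs were at 3192 CPM. With the highest cell of each library also left out, Apoe was at 2887 CPM in PFC_2MPT, 1691 in the 2 other OPCs of HIP_4MPT and 3359 in PFC_4MPT. The part of free RNA in these levels was not tested.

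Between the stages, no gene of the OPCs passed the test in the main fit, which left the graft site out. With the graft site as a block, 3 genes were called, Ptgds, Adarb2 and Tafa1. UMIs were summed over the OPCs of each library, and 4MPT was compared with 2MPT with HIP and PFC as the libraries of each stage. By the quasi-likelihood F test of edgeR, adjusted after Benjamini and Hochberg, 0 of 561 genes (0%) passed an adjusted p of 0.05, with 17 at an unadjusted p below 0.05, and DESeq2 called 0 as well. Without overlap between the stages, 92 genes (16.4%) were higher and 81 (14.4%) lower at 4MPT, by CPM. In sums of this kind fewer cells of a state and less RNA per cell cannot be told apart.

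The genes with the largest separated differences between stages were Ptgds, Adarb2, Tafa1, Nfia and Lrp1, higher at 4MPT. Lrp1 had 2 UMIs in PFC_2MPT, under the floor of 3, and its log2 fold change of 1.32 fell to 0.29 without that library. Tafa1 had an adjusted p of 0.857 in edgeR, and of 0.0444 with the graft site as a block. Adarb2, encoding an RNA-editing family protein without known editing activity, was at 299 CPM in HIP_2MPT and 1553 in HIP_4MPT, and 260 in PFC_2MPT and 916 in PFC_4MPT. Both 4MPT libraries lay above both 2MPT libraries, and the 3 OPCs of HIP_4MPT had 11, 5 and 3 UMIs. Its log2 fold change was 2.02 ± 0.45 (SE), with an adjusted p of 0.549 in edgeR, and it was called in edgeR with an adjusted p of 0.0193 when the graft site was a block. Ptgds, the prostaglandin D synthase of mature oligodendrocytes, had 5, 7, 25 and 70 UMIs in HIP_2MPT, PFC_2MPT, HIP_4MPT and PFC_4MPT. In HIP_4MPT, 24 of the 25 came from 1 of the 3 OPCs, and the others had 1 and 0, together 113 CPM, so that the separation of the stages rests on that cell. Its log2 fold change was 2.37 ± 0.73 (SE), with an adjusted p of 0.857 in edgeR and of 0.0193 with the graft site as a block, and it was 1.24 without HIP_4MPT. Ptgds was at 2691 CPM in the mouse UMIs of human barcodes of HIP_4MPT, above the 2043 CPM in the OPCs. Nfia, a gliogenic factor, was at 171 and 182 CPM at 2MPT and at 735 and 491 at 4MPT. With ribosomal and mitochondrial genes left out, Zeb2, Cfap20, U2af1, Maml2 and Ss18l2 had the largest separated differences downwards. In HIP_4MPT, U2af1, Maml2 and Ss18l2 had 2, 1 and 2 UMIs, under the floor of 3. Without PFC_4MPT the log2 fold change of Maml2 moved from -1.03 to -2.44 and that of Ss18l2 from -0.91 to -1.92. Of the ribosomal genes, Rpl35 had a log2 fold change of -1.25 and Rps29 of -1.24, both separated. Zeb2 was at 341 and 805 CPM at 2MPT and 245 and 219 at 4MPT, with a log2 fold change of -1.41 ± 0.47 (SE) and an adjusted p of 0.942 in edgeR.

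Between the graft sites, with stage as a covariate, 1 of 561 genes (0.178%) was called, and 42 were at an unadjusted p below 0.05. No gene was called in DESeq2 or with no stage in the fit. Without the 6 cells with all 5 committed genes no gene was called either, but only 372 genes were tested then. Tubb4a, Lims2 and Phyhipl were not among them, so this setting says nothing on these genes.

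Of the 3 tested genes of the committed list, 1 was separated and higher in PFC and none was called. Tubb4a, a tubulin of myelinating cells, had 4, 45, 2 and 77 UMIs in HIP_2MPT, PFC_2MPT, HIP_4MPT and PFC_4MPT and a log2 fold change of 2.22 ± 0.57 (SE), with an adjusted p of 0.0751 in edgeR. It was 1.59 without PFC_2MPT. Of its 122 UMIs in PFC, 101 came from the 6 cells with all 5 committed genes, which held 19.6% of the PFC UMIs. Phyhipl and Lims2 had adjusted p-values of 0.122 in edgeR, and 77.6% and 63.9% of their PFC UMIs came from those cells. With no filter on low counts edgeR called Tubb4a (adjusted p = 0.0444) and Lims2 (adjusted p = 0.0132). Fabp5, a fatty acid binding protein, and Ran, a nuclear transport GTPase, had the next largest separated differences upwards. In HIP_4MPT, Tubb4a, Phyhipl, Lims2, Fabp5 and Ran had 2, 2, 1, 1 and 1 UMIs, under the floor of 3. Downwards, Gm3417, Fat3, Kcnip3, Ly6h and Meg3 had the largest separated differences. Ly6h, a regulator of nicotinic receptors, was at 1110 CPM in HIP_2MPT and 490 in HIP_4MPT, against 208 and 299 in the PFC libraries, with an adjusted p of 0.14 in edgeR. Its log2 fold change was -1.69, and -0.74 without HIP_2MPT. In edgeR, Ly6h was called with 4 or more progenitor genes (adjusted p = 0.0371) and Gm3417 over 1000 UMIs (adjusted p = 0.0372). Over all genes, 134 (23.9%) were separated and higher in PFC and 82 (14.6%) were lower.

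**Figure D5:**
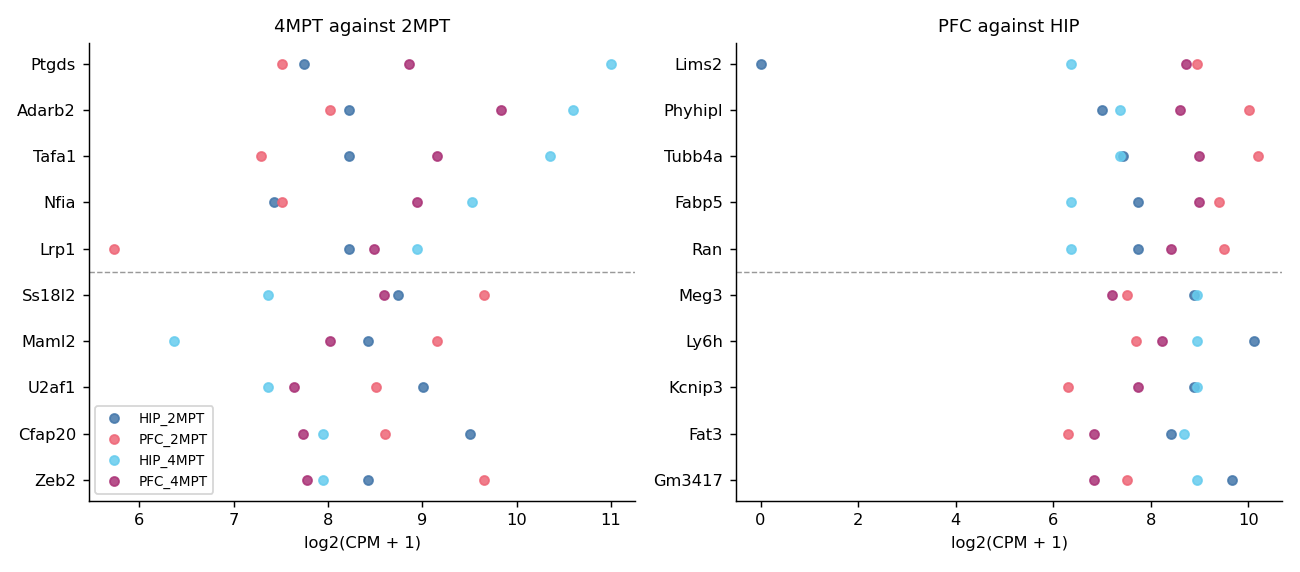
Level in each library, as log2(CPM + 1), of the genes named for their differences between stages (left) and between graft sites (right); genes above the dashed line were higher at 4MPT or in PFC. None of the genes shown passed the main test. Ptgds, Adarb2 and Tafa1 passed with the graft site as a block, and Tubb4a, Lims2, Ly6h and Gm3417 in 1 alternative setting each. Ptgds, at the top on the left, was at 2043 CPM in HIP_4MPT, where 1 OPC held 24 of its 25 UMIs.

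By function, the lists can be read against the shares of all 561 tested genes. By stage, 16.4% were separated and higher at 4MPT and 14.4% lower. By site, 23.9% were separated and higher in PFC and 14.6% lower. The lists are short, and their counts are given as a description. The myelin list had 2 genes tested by site, both separated and higher in PFC, with a median log2 fold change of 2.52. Of these, 1 was called. No gene was called without the 6 cells with all 5 committed genes, where 372 genes were tested in place of 561. No member of the lists described next was called. Of 14 tested OPC genes outside the rule, 2 were separated upwards and 0 downwards at 4MPT, with a median log2 fold change of 0.16 where all genes had -0.0073. Of the same 14, 1 was higher and 5 were lower in PFC, with a median of -0.41 and none called, beside -0.0035 for all genes. Of 9 tested matrix genes, 3 were separated and higher in PFC, beside 23.9% of all genes. Of 6 tested lineage factors, 1 was separated and lower at 4MPT, beside 14.4% of all genes, and 1 was separated and higher in PFC, beside 23.9%. None of 11 mitochondrially encoded genes was separated by site and 1 was by stage. Of 6 heat shock genes, 1 was separated in each direction by stage and 1 upwards by site. Of 4 tested immediate early genes, Fos was separated by stage, at 1195 and 571 CPM at 2MPT and 1961 and 1214 at 4MPT, and Junb and Jund were separated and lower in PFC. No cholesterol synthesis gene was abundant enough to be tested; all 20 had a UMI.

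The site difference in OPCs was then set against that in all other host cells of the same libraries, in a model with library as a block. By edgeR, 21 of 9601 genes (0.219%) differed in their site effect, and 0 (0%) in their stage effect, where 138 were at an unadjusted p below 0.05 and the analysis with no filter also called 0. The genes with a more negative effect in OPCs included Nxph1, which had 1 and 0 UMIs in the other host cells of the HIP libraries. This is under the floor of 3, so no direction is read from it. The host astrocytes in these other cells numbered 1, 17, 17 and 155 in HIP_2MPT, PFC_2MPT, HIP_4MPT and PFC_4MPT, and the part of this makeup in the differences was not tested.

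The same gene rule was applied to human barcodes, with the human symbols and over 80% human UMIs. It found 0 of 8626 human cells in HIP_2MPT and 0 of 6104 in PFC_2MPT, with upper bounds of 0.0428 and 0.0604%. At 4MPT it found 78 of 7035 (1.11%) in HIP and 102 of 9860 (1.03%) in PFC. Host and human OPCs were thus distributed differently over the libraries. At 2MPT 16 and 11 host OPCs stood beside no human ones, in HIP_4MPT 3 stood beside 78, and in PFC_4MPT 49 stood beside 102. With 1 library per condition this difference has no replicate check.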

How the data were processed

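The deposited UMI counts per gene and barcode of 4 graft libraries, counted by the authors with Cell Ranger against a joint human and mouse (mm10) reference, were used as whole numbers without normalization. The headers name Cell Ranger 5.0.0 and the submitters' processing notes Cell Ranger 3.1. The authors excluded host cells from their human data set. Host cells, OPCs, the mature (4 or more of 7 myelin genes), astrocyte (3 of 6) and microglial (3 of 7) classes were set by detected genes. Members and the 26 gene lists were chosen with earlier results of these data known. No doublet caller was run; of 169 barcodes shared between pairs of libraries, 1 was a member.

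UMIs were summed per library and tested with edgeR 4.0.16 (filterByExpr, TMM, quasi-likelihood F test, Benjamini-Hochberg, threshold 0.05) or DESeq2 1.42.0, in R 4.3.3; simulated data checked the procedure. Named genes were the rule genes, the most abundant list members, and the largest called or, below 3 calls, separated changes (ribosomal and mitochondrial genes left out, up to 8 or 5 per direction, at least 30 UMIs). No mouse reference sequence was used. Other files were not used here, and 1 gene is not reported here.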

Additional observations from a re-analysis of the deposited data

Results flagged for a closer look

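The share of OPCs among host cells, PFC minus HIP, was -0.322 percentage points at 2MPT and 3.93 at 4MPT, from 1 library each. The signs were opposite, but the 2MPT libraries had overlapping intervals. PFC_2MPT was the higher one among host cells outside the microglial class (4.23% beside 4.08%) and among lineage cells (15.7% beside 14.8%). No direction is therefore read at 2MPT. The difference between the stages was not tested.

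The site effect in OPCs differed from that in other host cells, by an interaction term in edgeR, for 21 genes, of which 12 with 30 or more UMIs in OPCs are named here. The fitted term was positive for Bmp4 (adjusted p = 0.027), Tmem108 (adjusted p = 0.0162), S100a6 (adjusted p = 0.00632) and Enpp2 (adjusted p = 0.0143). Bmp4 had 25 UMIs in PFC_2MPT, 18 in PFC_4MPT and none in the HIP libraries, and 38 of the 43 came from the 6 cells with all 5 committed genes. In the OPCs of HIP_4MPT, Tmem108 had no UMI and S100a6 had 1, so no direction is read from these 3 genes. Enpp2 was at 3959 CPM in the other host cells of HIP_4MPT against 243 in PFC_4MPT, but at 72.8 in HIP_2MPT against 100 in PFC_2MPT, so its high level lay in HIP_4MPT alone. The fitted term was negative for Nrxn3 (adjusted p = 3.26e-12), Nxph1 (adjusted p = 0.000127), Lrrc7 (adjusted p = 0.00641), Adarb2 (adjusted p = 0.000127), AW047730 (adjusted p = 0.0296), Ly6h (adjusted p = 0.0413), C1qa (adjusted p = 0.0296) and Kcnd2 (adjusted p = 0.0399). In the other host cells of HIP_2MPT, Nxph1, Lrrc7, AW047730 and Kcnd2 had under 3 UMIs each, so no direction is read from them. None is read from C1qa either, which had no UMI in the OPCs of PFC_2MPT and HIP_4MPT and 27 of its 29 UMIs in HIP_2MPT in the 4 OPCs with 2 or more microglial genes. For Nrxn3 the other host cells were at 3.95 and 3.85 CPM in HIP and 453 and 624 in PFC, while OPCs were at 490 to 1664 in all libraries.

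Among barcodes with human and mouse UMIs both above the limits, which no comparison used, 8 of 1417 met the gene part of the OPC rule, 6 of them in PFC_4MPT and 2 in HIP_2MPT.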

How the results depend on the processing

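For 4MPT against 2MPT, DESeq2, over 1000 UMIs and 4 or more progenitor genes also called 0 genes. In edgeR, 2 were called with no filter (Ttr and Cd74) and 3 with graft site as a block (Ptgds, Tafa1 and Adarb2). With a human share below 10%, 6 were called, Ptgds, Tafa1, Adarb2 and Rere higher at 4MPT and H2-D1 and Rpl35 lower. Leaving out 1 library each gave 0 to 12 calls, the 12 without PFC_2MPT, 3 without HIP_4MPT and 4 without PFC_4MPT. For PFC against HIP, 7 genes were called with no filter (Lims2 and Tubb4a among them) and 2 over 1000 UMIs (Gm3417 among them). With 4 or more progenitor genes 3 were called (Ptgds, Ly6h and Malat1), and 0 by DESeq2 and with no stage in the fit. In subsets chosen after seeing the data, 0 of 372 were called without the 6 cells with all 5 committed genes. Without cells with other types' markers (astrocyte list apart), 0 of 398 were called. Leaving out 1 library each gave 2 to 8 calls: 2 without HIP_2MPT, 5 without PFC_2MPT, 6 without HIP_4MPT and 8 without PFC_4MPT; the lone library of an arm was then assumed to vary like the others. The site interaction called 11 genes with no filter. Of the genes named for separated differences between stages or sites, none changed direction in the 195 values that the alternative settings gave for them. These genes were chosen because their libraries did not overlap, so a kept direction was largely set by that choice and supports nothing. Not every gene was tested in each setting. The cause of these changes was not tested.

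The share difference between stages ranged from -0.483 with host cells outside the microglial class as the denominator to 1.06 with a human share below 10%, beside 0.525. It was -1.44 without PFC_4MPT and 2.49 without HIP_4MPT. Between sites the share difference ranged from 0.886 to 3.45, and from 0.479 to 3.13 without 1 library each. The mean share of OPCs with 2 or more committed genes over the libraries was 56.5% and 14.8% after thinning to 1000 UMIs. The form that removed cells with astrocyte genes too was not run, since it left HIP_4MPT with no OPC. HIP_4MPT, with 3 OPCs and 12236 UMIs, limits every comparison. The replicate numbers pair no samples, and graft site as a block, above, is the fit that pairs the stages.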
